A study of Homo sapiens with 18 samples.

Results

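The 7 genes that encode the ligands of the epidermal growth factor (EGF) receptor, AREG, EREG, HBEGF, TGFA, EGF, BTC and EPGN, were followed in 3 cell lines of head and neck squamous cell carcinoma upon stimulation with hepatocyte growth factor (HGF), the ligand of the Met receptor. The members were the rows of the raw count table that carry these gene names, 7 of 19901 genes, and all 7 were found. Detroit 562 cells come from a metastasis of a pharyngeal tumour, FaDu cells from a primary tumour of the hypopharynx and SCC-9 cells from a primary tumour of the tongue. Each line was either left untreated or given 50 ng/ml HGF, with 3 mRNA libraries per group and 18 in all. The sample records and the study's methods for mRNA sequencing state 16 h of treatment, whereas the series record states 48 h. The medium was MEM-α for Detroit 562 and FaDu but a hydrocortisone-containing DMEM F12 for SCC-9, so that line, donor and medium cannot be told apart where SCC-9 is compared, and line and donor cannot between Detroit 562 and FaDu. Untreated wells of the same line were the controls.

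The EGF receptor ligands are made as membrane-anchored precursors with an EGF-like domain, and membrane proteases release the soluble factor. AREG (amphiregulin), TGFA (transforming growth factor alpha), EGF itself and EPGN (epigen) act on the EGF receptor, whereas EREG (epiregulin), HBEGF (heparin-binding EGF-like growth factor) and BTC (betacellulin) also bind ERBB4. In keratinocytes and other squamous epithelial cells, AREG, EREG, HBEGF and TGFA are known autocrine growth factors, and their transcription is known to respond to ERK signalling. mRNA levels do not tell how much ligand is released.

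Library totals ranged from 35304770 to 44003970 counts, and 15475 genes, among them all 7 members, passed the filter on low counts. EGF and EPGN passed through the groups in which they were high, since EGF had 2 to 3 counts in every SCC-9 library and EPGN 0 to 2 in every FaDu library. All 8 squamous epithelial markers examined had a mean of at least 1 CPM (counts per 1000000 counts of the library, with TMM scaling) in each line. Of 6 fibroblast markers 3 reached that level in SCC-9, 2 in Detroit 562 and 1 in FaDu. Of 4 haemopoietic markers only CD14 reached it, in FaDu and SCC-9, and of 3 endothelial markers 2 did in FaDu, 1 in Detroit 562 (VWF) and none in SCC-9. In Detroit 562 the summed fibroblast markers were 29.8 to 54.3 CPM in control and 15.0 to 27.6 CPM in HGF libraries, with PDGFRB at 0, and the summed endothelial markers reached at most 2.90 CPM in control and 1.06 CPM in HGF libraries. Neither sum overlapped between the groups in Detroit 562, where 20.1% of all genes tested had HGF libraries wholly below the controls. Higher sums were found elsewhere. The fibroblast markers had 77.5 to 99.4 CPM in control and 60.4 to 81.3 CPM in HGF libraries of SCC-9. The endothelial markers reached at most 8.34 CPM in control and 4.93 CPM in HGF libraries of FaDu. The part of these markers in the results was not tested. The study's methods mention repeats of the experiment, but no source used here ties a replicate number to a separate culture, so p-values measure the spread between these libraries.

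Of the 7 genes, 4 lie within 500 kb of each other on chromosome 4. EPGN (ENSG00000182585.9, chr4:74308473-74315307, plus strand), EREG (ENSG00000124882.3, chr4:74365143-74388751, plus strand) and AREG (ENSG00000109321.10, chr4:74445134-74455009, plus strand) follow each other, and BTC (ENSG00000174808.11, chr4:74744759-74794686, minus strand) lies 349.6 kb away from AREG, start to start. EGF (ENSG00000138798.11, chr4:109912884-110012266, plus strand) is on the same chromosome, TGFA (ENSG00000163235.15, chr2:70447280-70554193, minus strand) on chromosome 2 and HBEGF (ENSG00000113070.7, chr5:140332843-140346631, minus strand) on chromosome 5. Coordinates are GRCh38 gene extents, and none of the 7 overlaps another gene of the table on its strand.

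The promoters of the 4 members that were called higher with HGF in Detroit 562 are shown here. These genes did not move together in every comparison, since EREG was lowest in untreated SCC-9, where AREG, TGFA and HBEGF were highest. Each is the RefSeq window (GRCh38.p14) from 250 bases before to 50 bases after the gene start, read 5′ to 3′ on the gene's strand, and capitals mark matches to the motifs searched. The windows are chr4:74444886-74445185 (plus) for AREG, chr4:74364895-74365194 (plus) for EREG, chr5:140346554-140346853 (minus) for HBEGF and chr2:70553777-70554076 (minus) for TGFA, the first of its 2 entries.
AREG: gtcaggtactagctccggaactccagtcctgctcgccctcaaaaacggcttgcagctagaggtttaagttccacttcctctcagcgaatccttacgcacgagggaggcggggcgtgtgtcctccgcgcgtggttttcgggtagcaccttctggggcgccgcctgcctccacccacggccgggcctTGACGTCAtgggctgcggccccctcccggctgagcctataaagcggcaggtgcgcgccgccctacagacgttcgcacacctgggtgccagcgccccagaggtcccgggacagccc
EREG: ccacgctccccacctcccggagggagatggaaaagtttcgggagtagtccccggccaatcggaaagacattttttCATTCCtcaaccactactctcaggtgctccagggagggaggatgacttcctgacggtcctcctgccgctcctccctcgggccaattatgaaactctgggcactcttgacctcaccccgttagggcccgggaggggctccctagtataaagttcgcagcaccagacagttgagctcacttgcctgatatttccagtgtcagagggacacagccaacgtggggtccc
HBEGF: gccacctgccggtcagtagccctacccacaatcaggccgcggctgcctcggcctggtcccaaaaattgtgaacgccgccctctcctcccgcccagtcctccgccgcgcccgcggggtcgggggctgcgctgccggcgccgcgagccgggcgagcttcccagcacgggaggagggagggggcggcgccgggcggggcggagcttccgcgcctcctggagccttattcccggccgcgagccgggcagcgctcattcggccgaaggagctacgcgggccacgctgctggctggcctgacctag
TGFA: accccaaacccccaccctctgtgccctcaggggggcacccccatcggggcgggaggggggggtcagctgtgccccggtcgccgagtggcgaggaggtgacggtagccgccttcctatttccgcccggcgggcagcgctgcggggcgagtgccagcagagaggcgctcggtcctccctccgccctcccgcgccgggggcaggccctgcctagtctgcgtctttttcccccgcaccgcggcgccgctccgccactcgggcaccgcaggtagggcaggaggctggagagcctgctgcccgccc
Both strands were searched for TGANTCA, the AP-1 motif, for TGACGT, the core of the cAMP response element (CRE), and for GGAATG, the TEAD motif. AREG held the CRE core at −65 on its own strand and at −63 on the other, 2 overlapping readings of the same palindrome. EREG held one TEAD match at −175, and no letters of the 3 motifs were found in HBEGF, BTC, EPGN or either TGFA window. The EGF window had an AP-1 match at −17 that overlaps a TEAD match at −12. Among all 35116 RefSeq promoter windows of this length, 7.71% held the AP-1 motif, 7.98% the CRE core and 14.03% the TEAD motif. The windows were rich in G and C for TGFA (75.3% in its first entry, 63.0% in its second), HBEGF (75%), AREG (66.3%) and BTC (63.0%). They were poorer for EREG (57.7%), EGF (46.7%) and EPGN (37.7%).

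The untreated lines differed in which ligands they transcribed. SCC-9 held the highest AREG, TGFA, HBEGF and EPGN levels, whereas EREG was highest in FaDu, and BTC and EGF were lowest in SCC-9. AREG, EREG, HBEGF, TGFA and BTC differed between SCC-9 and each other line, and TGFA, HBEGF and EREG between Detroit 562 and FaDu. EGF and EPGN, which passed the filter only through the lines where they are high, are described by their counts. Such differences were common, since 65.4% of all genes tested differed between untreated Detroit 562 and SCC-9, 64.2% between FaDu and SCC-9 and 61.0% between Detroit 562 and FaDu (edgeR quasi-likelihood test; a call between groups needs an adjusted p below 0.1 and a log2 change of 0.4 or more in either direction). These 3 comparisons share their control libraries.

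AREG, an autocrine growth factor of squamous epithelium, had 375.6, 331.8 and 249.7 CPM in the 3 untreated SCC-9 libraries. Untreated FaDu libraries had 26.0, 33.6 and 34.4 CPM of AREG, and Detroit 562 libraries 18.9, 23.4 and 33.8 CPM. The SCC-9 level was 12.6-fold that of Detroit 562 (edgeR adjusted p = 1.15e-10) and 10.2-fold that of FaDu (adjusted p = 3.09e-10). Detroit 562 and FaDu overlapped and were not distinguished (log2 difference −0.31 ± 0.20 (SE), adjusted p = 0.178), although this difference reached −0.57 (adjusted p = 0.0153) without control replicate 3 of Detroit 562 and −0.42 (adjusted p = 0.0923) without control replicate 1 of FaDu.

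TGFA, which signals through the EGF receptor and is a classical product of carcinoma cells, followed the same order at its upper end. Its CPM values were 161.9, 138.7 and 133.8 in untreated SCC-9, 31.2, 34.4 and 53.2 in Detroit 562, and 23.9, 24.2 and 30.8 in FaDu. SCC-9 exceeded Detroit 562 3.66-fold (edgeR adjusted p = 3.39e-06) and FaDu 5.50-fold (adjusted p = 1.78e-07), with no overlap. Every Detroit 562 library was also above every FaDu library, by 1.5-fold in the fit (adjusted p = 0.0427), but the call was lost without control replicate 3 of Detroit 562 (adjusted p = 0.267) and without control replicate 1 (adjusted p = 0.114) or 2 (adjusted p = 0.112) of FaDu.

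HBEGF, the membrane-anchored ligand that also binds heparan sulfate, stood at 16.5, 15.4 and 10.4 CPM in untreated SCC-9. The FaDu values were 4.0, 5.3 and 4.6 CPM and those of Detroit 562 2.5, 2.6 and 3.0 CPM, so the 3 lines did not overlap. The order SCC-9, FaDu, Detroit 562 held at both steps, with SCC-9 3.03-fold above FaDu (edgeR adjusted p = 9.88e-06) and FaDu 1.72-fold above Detroit 562 (adjusted p = 0.0102).

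EREG, a ligand that binds both the EGF receptor and ERBB4, ran in the reverse direction. It had 38.1, 45.1 and 46.4 CPM in untreated FaDu, 15.9, 17.0 and 27.8 CPM in Detroit 562, and only 2.9, 3.1 and 2.6 CPM in SCC-9. FaDu was 2.14-fold above Detroit 562 (edgeR adjusted p = 2.5e-05), and Detroit 562 was 7.04-fold above SCC-9 (adjusted p = 1.29e-09). Thus 2 neighbouring genes, EREG and AREG, had opposite extremes in SCC-9, where the EREG level was the lowest and the AREG level the highest of the 3 lines.

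BTC, which like EREG also engages ERBB4, had 5.1, 5.2 and 3.4 CPM in untreated Detroit 562, 5.2, 4.8 and 2.5 CPM in FaDu, and 1.9, 1.9 and 2.1 CPM in SCC-9. Detroit 562 and FaDu did not differ beyond their spread (log2 difference 0.14 ± 0.32 (SE), edgeR adjusted p = 0.712), and both exceeded SCC-9, 2.33-fold (adjusted p = 0.0037) and 2.11-fold (adjusted p = 0.00853). EGF, the founding member of the family, was a weak transcript in every line, with 11 to 21 counts per untreated Detroit 562 library, 9 to 25 per FaDu library and 2 to 3 per SCC-9 library. Its summed counts gave a Detroit 562 to SCC-9 ratio of 6.95, with a 95% counting interval of 3.12 to 18.3, and a FaDu to SCC-9 ratio of 7.49 with an interval of 3.39 to 19.5.

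EPGN, the most recently described ligand of the family, was close to a transcript of 1 line. The untreated SCC-9 libraries had 1454, 1424 and 1299 counts of EPGN, the Detroit 562 libraries 8, 6 and 7, and the FaDu libraries 2, 1 and 2. Summed over libraries, SCC-9 was 188-fold above Detroit 562 (95% counting interval 123 to 304) and 845-fold above FaDu (interval 362 to 2604). These intervals cover counting error only. The levels of all 7 genes in the 18 libraries are drawn in the plot of CPM by library.

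**Figure D1:**
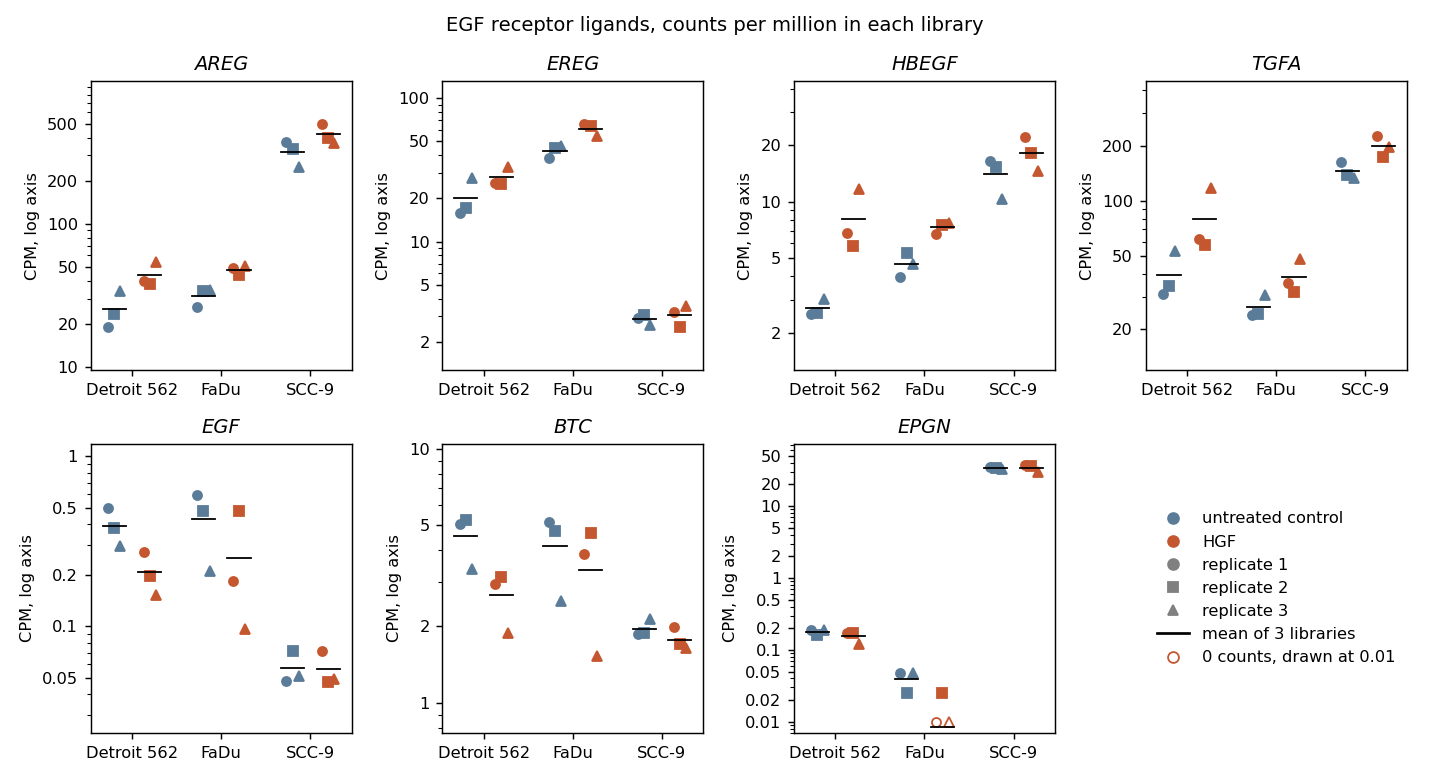
CPM (log axis, a separate range for each gene) of the 7 ligand genes in every library, by cell line and treatment, with the marker shape giving the replicate number and the bar the mean of 3 libraries. SCC-9 stands highest for AREG, HBEGF, TGFA and EPGN and lowest for EREG, EGF and BTC, and the EPGN counts of 0 in FaDu are drawn as open markers.

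To compare the ligands with each other, CPM values were divided by exonic length in kb. On this per-length scale AREG was the leading ligand in every line, with 80.7% of the summed ligand level in untreated SCC-9, 54.1% in FaDu and 51.6% in Detroit 562. TGFA came next in Detroit 562 (26.9%) and in SCC-9 (12.4%), whereas EREG came next in FaDu (21.5%, with TGFA at 15.2%). EREG made up 11.8% in Detroit 562 and 0.212% in SCC-9. EPGN reached 4.37% in SCC-9, above HBEGF at 1.95%, and the HBEGF share was 3.12% in Detroit 562 and 4.42% in FaDu. The counts include reads in introns, whereas the lengths do not, so a gene with long introns such as TGFA may be overstated.

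The summed per-length level of the 7 ligands was 240.0 ± 42.9 CPM per kb (SD, n = 3) in untreated SCC-9, 35.2 ± 3.87 in FaDu and 29.8 ± 7.91 in Detroit 562. With HGF it stood at 315.2 ± 46.9 CPM per kb in SCC-9, 51.5 ± 2.35 in FaDu and 51.6 ± 13.6 in Detroit 562. The lowest HGF sum of Detroit 562 (42.6) lay above its highest control sum (38.7). The same held for FaDu (48.9 against 37.9) and, by a narrow gap, for SCC-9 (279.7 against 279.0). HGF libraries wholly above the controls were also found for 18.1% of all genes tested with the Detroit 562 libraries. The shares were 4.05% for FaDu and 8.3% for SCC-9. AREG weighs most in these sums, and its own groups overlapped in SCC-9. The sums therefore do not show a rise of every ligand. In Detroit 562 the BTC share was 6.23% without and 2.10% with HGF and the HBEGF share 3.12% and 5.15%, while the AREG share was 51.6% without and 52.5% with HGF. The EREG share was 11.8% without and 9.67% with HGF.

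**Figure D2:**
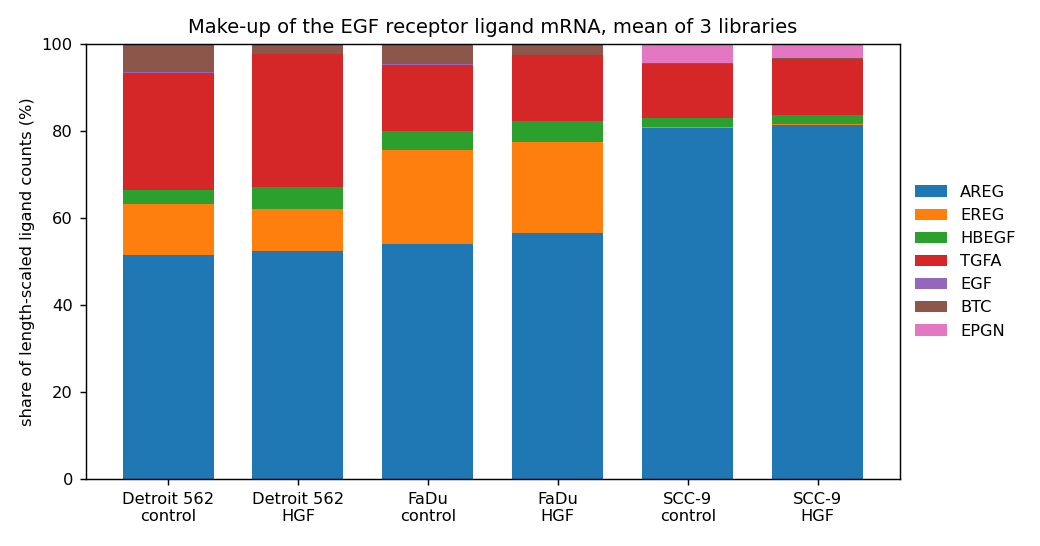
Share (%) of each ligand gene in the summed CPM per kb of exonic length of the 7 genes, mean of 3 libraries per bar, for control and HGF of each line. AREG takes 51.6% to 81.5% in all 6 groups, EREG is visible in Detroit 562 and FaDu, and EPGN only in SCC-9.

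HGF stimulation raised 4 ligand genes in Detroit 562. HBEGF rose 2.99-fold, TGFA 2.00-fold, AREG 1.73-fold and EREG 1.38-fold, whereas BTC fell to 0.583-fold. The count of 4 of 7 members higher stands beside 6.16% of all genes tested that were higher, and 1 of 7 lower beside 11.7% lower (17.9% in either direction). The median log2 fold change of the 7 members was 0.47, against −0.01 over all genes tested.

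HBEGF had the largest response of the 7. Its CPM values in Detroit 562 were 2.5, 2.6 and 3.0 in control libraries and 6.8, 5.8 and 11.7 with HGF, without overlap (log2 fold change 1.58 ± 0.25 (SE), edgeR adjusted p = 0.0010). TGFA had 31.2, 34.4 and 53.2 CPM in control and 62.3, 57.7 and 117.9 CPM in HGF libraries, again without overlap (log2 fold change 1.00 ± 0.25, adjusted p = 0.00898). For both genes the third replicate was the highest library of its group.

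AREG had 18.9, 23.4 and 33.8 CPM in control and 39.8, 38.2 and 53.8 CPM in HGF libraries of Detroit 562 (log2 fold change 0.79 ± 0.20 (SE), edgeR adjusted p = 0.0101). Here too the groups did not overlap. HGF libraries lay wholly above the controls for 3 members (AREG, HBEGF, TGFA) in this line, and for 18.1% of all genes tested.

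EREG had 15.9, 17.0 and 27.8 CPM in control and 25.8, 25.2 and 33.0 CPM in HGF libraries, so control replicate 3 lay among the HGF values (log2 fold change 0.47 ± 0.17 (SE), edgeR adjusted p = 0.0585). Each HGF library was nevertheless above the control of its own number, by 0.69, 0.56 and 0.25 on the log2 scale. The call was lost without control replicate 1 (adjusted p = 0.262), control replicate 2 (adjusted p = 0.217) or HGF replicate 3 (adjusted p = 0.232).

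BTC was the ligand that fell in Detroit 562. Its CPM values were 5.1, 5.2 and 3.4 in control and 2.9, 3.1 and 1.9 in HGF libraries, with every HGF library below every control (log2 fold change −0.78 ± 0.33 (SE), edgeR adjusted p = 0.0970). HGF libraries lay wholly below the controls for 20.1% of all genes tested. The 3 numbered pairs gave nearly equal log2 ratios of −0.78, −0.75 and −0.84, and with a term for the replicate number the adjusted p was 0.000281. That fit called 4 of 7 members higher and, with EGF, 2 of 7 lower, beside 7.13% and 14.4% of all genes (21.5% in either direction). Without that term the BTC call was lost on leaving out control replicate 1 (adjusted p = 0.248), control replicate 2 (0.246), or HGF replicate 1 (0.122), 2 (0.106) or 3 (0.290).

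EGF showed the same direction as BTC at a far lower level, with 21, 14 and 11 counts in control and 11, 7 and 5 in HGF libraries of Detroit 562 (log2 fold change −0.89 ± 0.48 (SE), edgeR adjusted p = 0.184). In CPM the groups did not overlap, and with the replicate term EGF was called lower (adjusted p = 0.0685). Since EGF passed the filter on low counts through groups in which it was high, neither gives support for a fall. EPGN had 8, 6 and 7 counts in control and 7, 6 and 4 in HGF libraries (adjusted p = 0.783), and a change was not detectable at this depth.

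In FaDu the same 4 ligand genes had higher values with HGF, but the test without the replicate term called none of the 7, and 0.0258% of all genes tested (4 genes, with 1247 at an unadjusted p below 0.05). Neither DESeq2 fit called a member, beside 0.426% of all genes with a fold change prior and 0.42% without it. No label pairs the libraries by replicate number, but same-numbered ones deviated together in these data and were taken as pairs. With a term for the number, 4 of 7 members were called higher, beside 2.0% of all genes, and none lower, beside 3.6% (5.6% in either direction).

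AREG in FaDu had 26.0, 33.6 and 34.4 CPM in control and 48.9, 44.2 and 50.6 CPM in HGF libraries (log2 fold change 0.61 ± 0.20 (SE), edgeR adjusted p = 0.519, with the replicate term 0.000619). EREG had 38.1, 45.1 and 46.4 CPM in control and 66.0, 63.8 and 54.6 CPM with HGF (log2 fold change 0.51 ± 0.17, adjusted p = 0.521, with the replicate term 0.00429). Neither gene overlapped between the groups.

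HBEGF in FaDu had 4.0, 5.3 and 4.6 CPM in control and 6.7, 7.5 and 7.7 CPM in HGF libraries (log2 fold change 0.65 ± 0.24 (SE), edgeR adjusted p = 0.545, with the replicate term 0.00225). TGFA had 23.9, 24.2 and 30.8 CPM in control and 35.9, 31.8 and 48.4 CPM with HGF (log2 fold change 0.56 ± 0.25, adjusted p = 0.609, with the replicate term 0.00036). All 4 genes thus had HGF libraries wholly above the controls, as had 4.05% of all genes tested in FaDu.

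BTC in FaDu had 5.2, 4.8 and 2.5 CPM in control and 3.8, 4.7 and 1.5 CPM in HGF libraries, with overlap and with each HGF library below the control of its number (log2 fold change −0.31 ± 0.33 (SE), edgeR adjusted p = 0.799, with the replicate term 0.104). For EGF, 25, 19 and 9 counts in control stood beside 8, 19 and 4 with HGF (adjusted p = 0.650). EPGN had 0 to 2 counts in every FaDu library, so no fold is given.

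In SCC-9, the line with the highest AREG and TGFA, the log2 fold changes were at most 0.45. No member was called without the replicate term, nor was any of the 15475 genes tested (0.0%, with 641 at an unadjusted p below 0.05). Neither DESeq2 fit called a member, although each called 19 genes of the whole table (0.123%). With the replicate term, AREG and TGFA were called higher, 2 of 7 members beside 0.562% of all genes, and none was called lower, beside 1.41% (1.97% in either direction).

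TGFA in SCC-9 had 161.9, 138.7 and 133.8 CPM in control and 224.8, 173.6 and 197.0 CPM in HGF libraries, without overlap, a pattern shared by 8.3% of all genes tested (log2 fold change 0.45 ± 0.24 (SE), edgeR adjusted p = 1.0, with the replicate term 0.00248). AREG had 375.6, 331.8 and 249.7 CPM in control and 497.2, 400.6 and 368.7 CPM with HGF (log2 fold change 0.40 ± 0.19, adjusted p = 1.0, with the replicate term 0.0120). One AREG control, replicate 1, lay above the lowest HGF library.

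HBEGF in SCC-9 had 16.5, 15.4 and 10.4 CPM in control and 22.0, 18.2 and 14.5 CPM in HGF libraries. The groups overlapped, while each HGF library exceeded the control of its number. The log2 fold change of 0.37 ± 0.22 (SE) had an edgeR adjusted p of 1.0, and with the replicate term 0.0449 at a log2 fold change of 0.38, just under the minimum of 0.4 for a call. EPGN, abundant only here, had 34.8, 33.8 and 33.1 CPM in control and 36.8, 36.3 and 29.6 CPM with HGF (log2 fold change 0.01 ± 0.11). EREG (0.10 ± 0.22) and BTC (−0.14 ± 0.35) were not called in either fit.

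**Figure D3:**
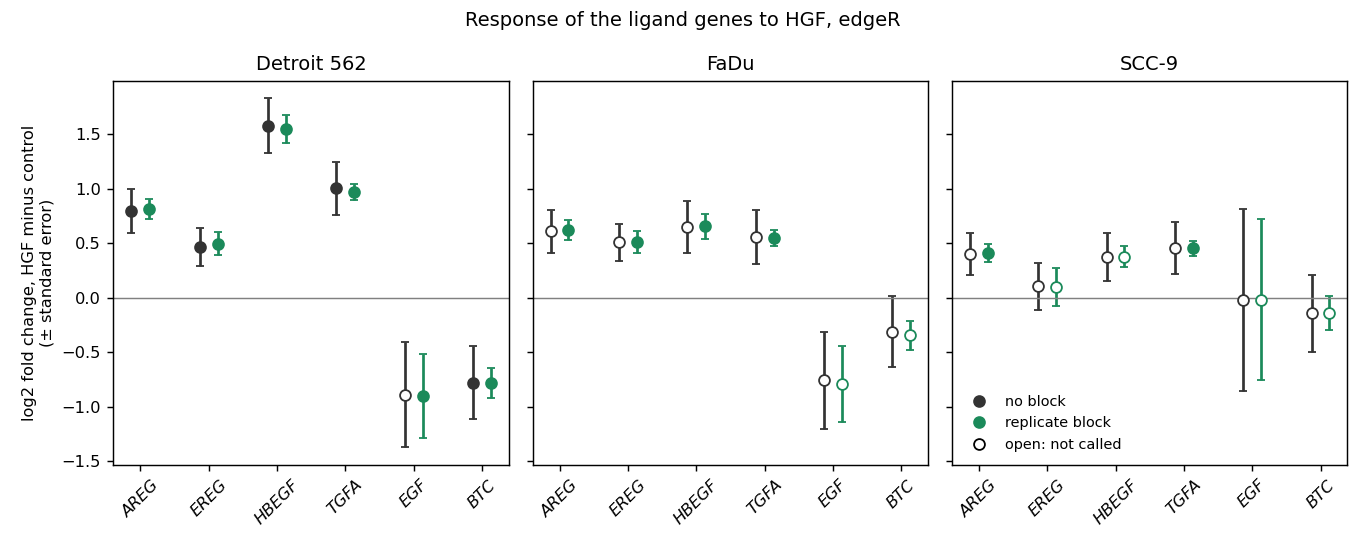
Log2 fold change of HGF against control (± SE) of 6 ligand genes in each line, from edgeR without and with a term for the replicate number. Filled markers are called and open ones are not, so that HBEGF at 1.58 leads in Detroit 562, and FaDu and SCC-9 have filled markers only with the replicate term; EPGN is left out because it has 0 to 2 counts in FaDu.

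Taken pair by pair, HBEGF, TGFA and AREG were higher with HGF in all 9 pairs of libraries with the same number, as were 7.7% of all genes tested. The log2 ratios of HBEGF ranged from 0.24 to 0.48 in SCC-9, from 0.49 to 0.75 in FaDu and from 1.18 to 1.94 in Detroit 562. For TGFA they ranged from 0.32 to 0.56, from 0.39 to 0.65 and from 0.75 to 1.15 in the same order. AREG ranged from 0.27 to 0.56, from 0.39 to 0.91 and from 0.67 to 1.07. The HBEGF and TGFA ratios of Detroit 562 lay above those of the other lines, whereas those of AREG overlapped between Detroit 562 and FaDu. The share of all genes with such a gap between lines was not counted, so nothing is concluded from it. Without the replicate term edgeR called no response difference between lines for either gene.

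**Figure D4:**
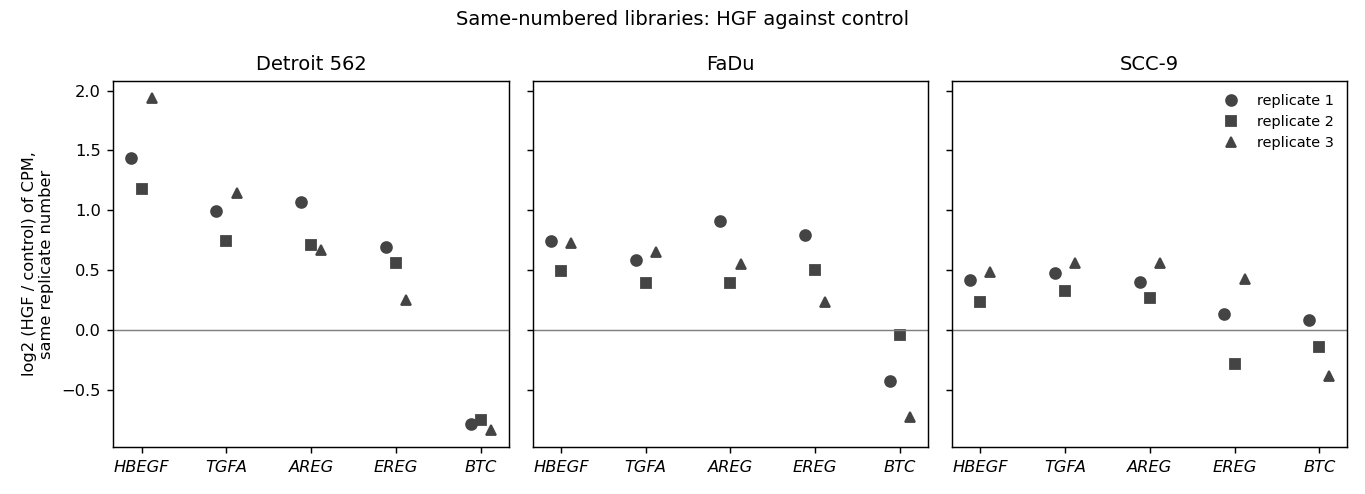
Log2 ratio of CPM between the HGF and the control library of the same replicate number, for 5 ligand genes in each line, with the marker shape giving the number. HBEGF, TGFA and AREG lie above 0 in all 9 pairs, and BTC lies near −0.8 in all 3 pairs of Detroit 562.

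Whether a ligand responded differently between lines was tested directly, as the difference of the HGF effects. Without the replicate term no member differed in any of the 3 line pairs (at an adjusted p of 0.1, with no minimum fold change), against 0.239% of all genes between Detroit 562 and FaDu, 0.924% between Detroit 562 and SCC-9 and 0.0% between FaDu and SCC-9. At an unadjusted p below 0.05, 1788, 2378 and 337 genes differed. The largest difference was that of HBEGF, whose response was larger in Detroit 562 than in SCC-9 by 1.21 ± 0.33 (SE) on the log2 scale (edgeR adjusted p = 0.138) and larger than in FaDu by 0.93 ± 0.34 (adjusted p = 0.332). DESeq2 without a fold change prior called the former (adjusted p = 0.0243), beside 4.26% of all genes.

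With the replicate term, HBEGF (log2 difference 0.89, edgeR adjusted p = 0.0049) and TGFA (0.42, adjusted p = 0.0176) responded more in Detroit 562 than in FaDu, 2 of 7 members beside 19.1% of all genes. Against SCC-9, HBEGF (a 2.25-fold larger response, adjusted p = 0.000288), TGFA (log2 difference 0.52, adjusted p = 0.00252) and AREG (0.40, adjusted p = 0.0353) responded more and BTC (−0.64, adjusted p = 0.0427) fell further in Detroit 562, 4 of 7 beside 26.9% of all genes. FaDu and SCC-9 did not differ for any member, beside 1.32% of all genes. The EREG response of Detroit 562 and FaDu differed by −0.04 ± 0.24 without the term.

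Around the ligands, a list of 48 genes of the pathway was examined, and all 48 were tested. In Detroit 562, 13 of them rose and 8 fell, beside 6.16% and 11.7% of all genes, while 1 rose in FaDu and none passed in SCC-9, where 0.0258% and 0.0% of all genes were called in either direction. With the replicate term, 13 were higher and 10 lower in Detroit 562 (7.13% and 14.4% of all genes), 12 and 1 in FaDu (2.0% and 3.6%), and 9 and 1 in SCC-9 (0.562% and 1.41%). The median log2 fold change of the list was 0.12 in Detroit 562.

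EGFR, the common receptor, was nearly equal in all 6 groups. Its means were 518.0 ± 17.98 CPM (SD, n = 3) in control and 549.7 ± 40.3 with HGF in SCC-9, 541.1 ± 43.6 and 614.9 ± 101.4 in FaDu, and 554.9 ± 10.3 and 554.9 ± 51.2 in Detroit 562. ERBB2, the partner that binds no ligand of its own, fell in Detroit 562 from 140.0 ± 14.1 to 95.6 ± 11.8 CPM (log2 fold change −0.55 ± 0.10 (SE), edgeR adjusted p = 0.00173). ERBB3, a neuregulin receptor with an impaired kinase, fell from 43.2 ± 1.61 to 29.8 ± 3.66 CPM (−0.53 ± 0.11, adjusted p = 0.00337). ERBB4, the other receptor of EREG, HBEGF and BTC, was at 0.339 to 0.490 CPM on average in all 6 groups. Of the 4 receptors, 2 fell and none rose in Detroit 562, beside 11.7% of all genes lower and 6.16% higher.

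Among the 4 neuregulins, which are ligands of ERBB3 and ERBB4, NRG4 fell in Detroit 562 from 16.3 ± 3.07 to 8.26 ± 1.68 CPM (SD, n = 3, log2 fold change −0.97 ± 0.22 (SE), edgeR adjusted p = 0.00527), and the other 3 were not called. NRG1 had 27.3 ± 7.11 CPM in control and 45.3 ± 8.87 with HGF in FaDu (log2 fold change 0.73 ± 0.20, adjusted p = 0.436, with the replicate term 6.46e-05).

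Of the 11 genes that act in the shedding of ligands, 3 rose and 2 fell in Detroit 562, beside 6.16% and 11.7% of all genes. ADAM17, the main sheddase of AREG, EREG, HBEGF and TGFA, had 41.2 ± 6.08 CPM in control and 32.3 ± 1.47 with HGF, a log2 fold change of −0.35 below the minimum for a call (edgeR adjusted p = 0.0273). ADAM10, the main sheddase of EGF and BTC, was not called (−0.14, adjusted p = 0.269). ADAM19 rose from 5.05 ± 0.413 to 9.44 ± 0.897 CPM (adjusted p = 0.00474), and the related proteases ADAM8 (log2 fold change 0.89, adjusted p = 0.0620) and ADAM12 (0.85, adjusted p = 0.0574) rose also, both calls being lost without control replicate 1 (adjusted p = 0.190 and 0.234). RHBDL2, a rhomboid protease that can cleave EGF, fell from 6.50 ± 1.86 to 2.78 ± 0.744 CPM (adjusted p = 0.00457), and RHBDF1, a pseudoprotease that escorts ADAM17, fell by 0.60 on the log2 scale (adjusted p = 0.00907). The log2 fold changes in FaDu and SCC-9 were 1.19 and 0.49 for ADAM19, 1.10 and 0.58 for ADAM8, and 0.72 and −0.14 for ADAM12. They were −0.55 and −0.51 for RHBDL2 and −0.13 and −0.02 for RHBDF1. None of these was called without the replicate term, beside 0.0258% and 0.0% of all genes. With it, 3 of the 11 genes were higher and 1 lower in FaDu (2.0% and 3.6% of all genes). In SCC-9 these counts were 2 and 1 (0.562% and 1.41%).

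Among 7 genes of ligand trafficking and anchoring, 3 fell in Detroit 562, beside 11.7% of all genes. These were SDC4, a heparan sulfate proteoglycan of the cell surface (log2 fold change −0.49, edgeR adjusted p = 0.00122), the tetraspanin CD9, which associates with the HBEGF precursor (−0.52, adjusted p = 0.0202), and the proteoglycan GPC1 (−0.51, adjusted p = 0.0715). The last 2 calls were lost without control replicate 1 (adjusted p = 0.1001 and 0.287). None of 10 receptor adaptors and inhibitors was called in either direction without the replicate term. With it CBLB, a ubiquitin ligase that restrains the receptor, was called lower in Detroit 562 (−0.47, adjusted p = 0.00347, without the term 0.102).

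Genes known to respond to ERK signalling made up most of the rises, with 10 of 12 higher and none lower in Detroit 562, beside 6.16% and 11.7% of all genes. SPRY4 (log2 fold change 1.95), FOSL1 (1.55), PHLDA1 (1.56), DUSP6 (1.53), ETV5 (1.34), DUSP4 (1.11) and SPRY2 (1.00) rose at least as much as TGFA at its 1.00, and DUSP5 (0.85), ETV4 (0.76) and SPRED1 (0.44) rose less. These last 3 calls were lost without control replicate 1 (adjusted p = 0.148, 0.120 and 0.173). Their edgeR adjusted p-values lay between 0.000247 for DUSP6 and 0.0348 for SPRED1. EGR1 (−0.47, adjusted p = 0.632) and SPRED2 (0.36, adjusted p = 0.0457) were not called. With the replicate term EGR1, an immediate early transcription factor, was called lower (−0.73, adjusted p = 0.000147), with 19111, 4550 and 4950 counts in control and 15507, 2445 and 1918 in HGF libraries, so that the groups overlapped. That makes 10 of 12 higher and 1 lower in that fit (7.13% and 14.4% of all genes). DUSP6, a phosphatase that inactivates ERK, was the single gene of the list to rise in FaDu (log2 fold change 1.44, adjusted p = 0.0115), a call lost without control replicate 1 of FaDu (adjusted p = 0.160). With the replicate term, 8 of these 12 genes were higher in FaDu, beside 2.0% of all genes, and 7 in SCC-9, beside 0.562%.

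The ligand genes on chromosome 4 were set beside their neighbours. Within 500 kb of the EPGN, EREG, AREG and BTC genes lie 10 other genes of the table, most of them chemokine genes of the CXCL family, and 7 of these passed the filter. In untreated cells AREG and EPGN were highest in SCC-9, as were 3 of the neighbours (CXCL3, CXCL2 and MTHFD2L), whereas EREG, which lies between EPGN and AREG, was lowest there. MTHFD2L, the gene next to EPGN, had 16.4 ± 0.397 CPM (SD, n = 3) in SCC-9, 9.35 ± 0.703 in FaDu and 7.99 ± 1.54 in Detroit 562. None of the 7 rose with HGF in Detroit 562, beside 6.16% of all genes. Of the 7, 1 fell, CXCL6 (log2 fold change −0.65, edgeR adjusted p = 0.0901), beside 11.7% of all genes. For CXCL1 the log2 value was −0.68 (adjusted p = 0.107).

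**Figure D5:**
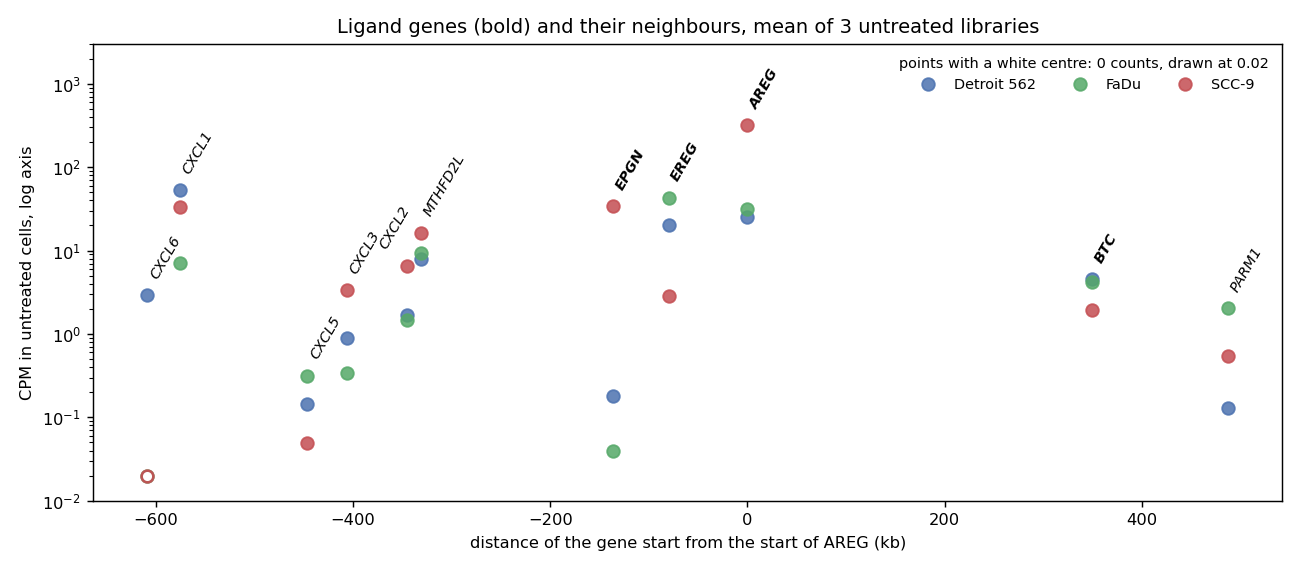
CPM in untreated cells (log axis, mean of 3 libraries) of the ligand genes (bold) and of the neighbours that passed the filter, against the distance of each gene start from the start of AREG in kb. EPGN and AREG are highest in SCC-9, EREG between them is lowest in SCC-9, and CXCL6 had no counts in untreated FaDu and SCC-9.

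The genes whose profile over the 18 libraries was most like that of each ligand were found by the root mean square difference of centred log2 CPM values, as a description that lines and treatment both shape. PIK3CD (0.27) and CAMK2N1 (0.30) were closest to AREG, MAFF (0.26) and BNIP3 (0.27) to HBEGF, and HERC3 (0.27) and PDCD1LG2 (0.29) to TGFA. CTTN (0.30) and GAL (0.32) were closest to EREG, FADS1 (0.19) and MMAB (0.21) to BTC, PIR (0.31) and TSPAN15 (0.31) to EGF, and MAGEA2 (0.57) and OLFM4 (0.60) to EPGN. Within the family the closest pairs were BTC and EGF (0.45), HBEGF and TGFA (0.56) and AREG and TGFA (0.76), while EREG and EPGN were the farthest apart (5.61). EGF in every line and EPGN outside SCC-9 had few counts. Distances that involve these 2 genes therefore depend in part on the prior count of 2 added before taking logs.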

How the data were processed

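The authors sequenced poly(A)-selected, stranded single-end libraries, trimmed reads with cutadapt 1.16, aligned them with STAR 2.5.2b to GRCh38.p12 with GENCODE 28, and counted reads per gene with bedtools over whole gene extents, introns included, on the gene's strand. The deposited table holds these raw counts for 19901 genes and all 18 libraries. edgeR 4.0.16 (R 4.3.3) with TMM factors and filterByExpr was run over all 18 libraries with 1 mean per line and treatment. Its quasi-likelihood test was adjusted by Benjamini-Hochberg over 15475 genes, with the study's thresholds (adjusted p under 0.1, log2 change of 0.4 or more in either direction), which the study applied to DESeq2. Alternatives were DESeq2 1.42.0, other scaling and filters, fewer libraries and a replicate term. Same-numbered control and HGF libraries deviated together in every pair (correlation 0.161 to 0.563). They were therefore taken as pairs, which no label states. Exonic lengths are from GENCODE 44. The fits were tested on simulated data with known changes. No 2 libraries agreed within sampling noise. All 7 members were named, and pathway genes where called or as receptors. The members and lists were chosen with earlier results of these data known.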

Additional observations from a re-analysis of the deposited data

Results flagged for a closer look

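A different response between lines was found for 4 ligand genes, 6 tests in all, in the edgeR fit with a term for the replicate number. Without that term and with all libraries edgeR called none of them. DESeq2 without a fold change prior called HBEGF between Detroit 562 and SCC-9 (adjusted p = 0.0243), beside 4.26% of all genes. Between Detroit 562 and FaDu the ligands called with the term were TGFA (adjusted p = 0.0176) and HBEGF (adjusted p = 0.0049), beside 19.1% of all genes. Between Detroit 562 and SCC-9 they were TGFA (adjusted p = 0.00252), AREG (adjusted p = 0.0353), BTC (adjusted p = 0.0427) and HBEGF (adjusted p = 0.000288), beside 26.9% of all genes. The HBEGF response in Detroit 562 exceeded that in SCC-9 2.25-fold with the term and 2.31-fold without it, where the adjusted p was 0.138.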

How the results depend on the processing

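With the replicate block, the called ligands went from 0 to 4 in FaDu (AREG, EREG, HBEGF, TGFA), and all genes called from 0.0258% to 5.6%. In SCC-9 the ligands went from 0 to 2 (TGFA, AREG), and all genes from 0.0% to 1.97%. For the response of Detroit 562 minus FaDu the ligands went from 0 to 2, and all genes from 0.239% to 19.1%. For Detroit 562 minus SCC-9 they went from 0 to 4, and all genes from 0.924% to 26.9%. DESeq2 without a fold change prior gave 1 ligand there, beside 4.26% of all genes. EGF in Detroit 562 was added as well (adjusted p = 0.0685), though it passed the filter through groups in which it was high. The pathway genes CBLB and EGR1 were called lower in Detroit 562, and among the ligands and the named pathway genes the block lost no call. Leaving out 1 library in turn gave 3 to 5 called ligands in Detroit 562 (3 without control replicate 1, control replicate 2 or HGF replicate 3) and 0 to 2 for the response of Detroit 562 minus SCC-9 (EREG and HBEGF without control replicate 3 of Detroit 562, HBEGF without its HGF replicate 2). AREG, HBEGF and TGFA in Detroit 562 were called in all 6 such fits. Their adjusted p-values reached at most 0.0684, 0.00971 and 0.0609. Some uncalled log2 values changed sign on leaving out 1 library. With HGF these were BTC in FaDu (−0.62 to 0.049) and, in SCC-9, EREG (−0.0039 to 0.23), EGF (−0.22 to 0.17) and EPGN (−0.038 to 0.11). Among response differences these were EREG (−0.19 to 0.26) and EGF (−0.52 to 0.68) for Detroit 562 minus FaDu, and TGFA (−0.079 to 0.23) and BTC (−0.48 to 0.19) for FaDu minus SCC-9. Untreated Detroit 562 minus FaDu gave −0.44 to 0.20 for EGF and −0.12 to 0.33 for BTC. EREG in Detroit 562 was lost with only that line's libraries (adjusted p = 0.154) and BTC without a filter (adjusted p = 0.113). Of the pathway calls in Detroit 562, those of GPC1, ADAM8, ADAM12, SPRED1, DUSP5, CD9 and ETV4 were lost without control replicate 1, all but CD9 and ETV4 also without HGF replicate 3, GPC1, ADAM8, ADAM12 and SPRED1 without control replicate 2, GPC1 without HGF replicate 2 and ADAM8 without HGF replicate 1. The cause was not tested. With the longest transcript in place of the exonic length, AREG stayed the largest share in all 6 groups (54.4% in untreated Detroit 562). At 0 to 25 counts per library, changes of EGF in every line and of EPGN outside SCC-9 were limited by depth.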
